A study of Homo sapiens with 4 samples.

Results

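The genes described here are 10 repressors and output factors of the circadian clock: PER1, PER2, PER3, CRY1, CRY2, NR1D1, NR1D2, DBP, TEF and BHLHE40. The rule names the genes and sets no threshold on their values, but it was written with earlier results of these data known. Each of the 10 was found by its Ensembl identifier among the 37515 genes of the count data. The data are RNA-seq counts of Caco-2 cells, a human colorectal carcinoma line used as a model of the intestinal epithelium, grown on transwell inserts. The titles of all 4 libraries carry the label WT or wt (wild type). Both conditions were sequenced in 2 libraries each: unstimulated cells in medium alone at 0 h, and cells given 60 ng/ml interferon gamma (IFNγ) in the basal compartment and taken at 3 h. The unstimulated cells have no 3 h sample, so IFNγ and the passing of 3 h cannot be told apart in any value below, nor can the handling of the cells at stimulation. Neither the labels nor the methods name a step that synchronises the clock of the cells, and all 4 libraries come from 1 cell line.

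The circadian clock is a feedback loop of transcription. CLOCK and BMAL1 bind E-box sequences and switch on the PER and CRY genes, whose proteins return to the nucleus and block CLOCK and BMAL1. In a second loop the nuclear receptors encoded by NR1D1 and NR1D2 (REV-ERBα and REV-ERBβ) repress BMAL1, against the activating ROR receptors. DBP and TEF are bZIP factors that carry the rhythm to output genes through D-box sequences, where NFIL3 opposes them, and BHLHE40 (DEC1) competes for E-boxes. In cultured cells several of these genes are also known to respond directly to serum, glucocorticoids, cAMP or low oxygen.

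The libraries held 7171455 to 10365346 counts, and 1 CPM (a count per 1000000 counts of a library, with TMM scaling) stood for 7.14 to 10.3 counts. The IFNγ label was checked on 10 IFNγ-induced genes, with a median log2 fold change of 3.00. All 10 had higher CPM in both IFNγ libraries, as had 31.6% of all tested genes. Of the 10, 9 passed the test described below (SOCS1 did not, edgeR adjusted p = 0.0597). Of 11 epithelial markers, 10 had enough counts to be tested and CDX1 had at most 5 counts in any library. Of the tested markers 4 rose (CDX2, KRT18, KRT8 and ALPI), 1 fell (SI, the brush border sucrase-isomaltase) and 5 did not pass. Of all tested genes 9.02% rose and 11.0% fell. SI did not pass in DESeq2 or with the trend of GC content and length described below removed. The summed level of the epithelial markers was 5664 to 6128 CPM in the unstimulated libraries and 7012 to 7565 CPM in the IFNγ libraries. Of 10 markers of blood, endothelial and stromal cells, 9 had counts listed, with a summed level of 98.9 to 187 CPM unstimulated and 132 to 179 CPM with IFNγ. Most of it was COL1A1 (638 to 1842 counts), and PTPRC, COL1A2 and DCN had at most 2 counts in any library. Of the 4 that could be tested 0 passed in edgeR and in DESeq2, and 1 had an unadjusted p under 0.05 (1 passed in edgeR without a filter on low counts). The part of these levels in the results was not tested.

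Each of the 10 clock genes passed the filter on low counts, with 73 to 2403 counts per gene and library. The conditions were compared in 1 edgeR fit of all 14820 genes that passed (quasi-likelihood F test), p-values were adjusted after Benjamini and Hochberg over all of them, and "rose" and "fell" are used for an adjusted p under 0.05. SE is the standard error of a log2 fold change. By this test 4 of the 10 clock genes changed, against 20.0% of all tested genes. PER2, CRY2 and TEF rose (9.02% of all tested genes rose), and BHLHE40 fell (11.0% fell). With an absolute log2 fold change above 1 as well, PER2 and BHLHE40 were called, against 7.28% of all tested genes (2.88% higher and 4.40% lower). The study's methods name this fold change threshold for other cells, and for Caco-2 they refer to an earlier description. The IFNγ libraries lay wholly above the unstimulated ones for 4 clock genes and wholly below for 5, and DBP alone overlapped, but such separation was found in 62.4% of all tested genes (31.6% above and 30.8% below). The median log2 fold change of the 10 was -0.26, beside -0.01 over all tested genes. In bulk RNA a lower value may come from fewer cells that express a gene or from less RNA per cell, which cannot be told apart here.

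The log2 fold changes of all tested genes were larger at a higher GC content of their longest transcript (Spearman rho = 0.431 across 14518 genes, which are not independent), and the clock genes span much of that range, from 37.3% in CRY1 and 38.3% in NR1D2 to 62.7% in PER1, beside a median of 47.9% over tested genes. Removing a trend of GC content and length from each library therefore shifted these genes unequally. After it PER2, CRY1 and TEF rose and PER1, NR1D1 and BHLHE40 fell, 3 in each direction in place of 3 and 1, and 58.1% of all genes past the test rose, in place of 45.1%. The changes of PER2, TEF and BHLHE40 passed the test with and without this removal.

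**Figure D1:**
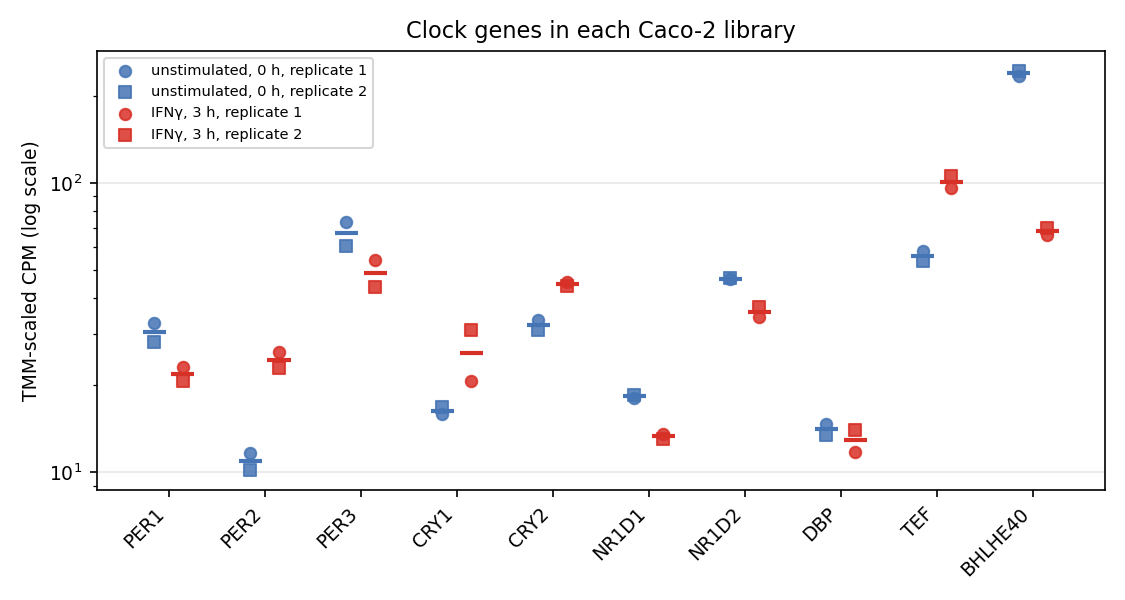
Level of the 10 clock genes in each library as TMM-scaled CPM on a log axis. Circles are replicate 1 and squares replicate 2 of unstimulated cells at 0 h (blue) and of cells with IFNγ at 3 h (red), and bars are group means. BHLHE40 is the gene with the widest gap, from 234 and 244 CPM down to 66.3 and 69.7 CPM, and the points of DBP overlap.

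To show the sequence context of the 4 genes that changed, the 250 bases upstream of their RefSeq transcription starts (GRCh38.p14) are given 5′ to 3′, for both annotated starts of TEF and for the start of CRY2 that held a match. Capitals mark matches, on either strand, to the E-box CACGTG, the related E′-box CACGTT, the D-box TTANGTAA, the ROR element, the cAMP response element TGACGTCA, the IFNγ-activated site TTCNNNGAA, and ACGTG, the core of hypoxia response elements, which lies within the E-box and, read on the other strand, within the E′-box. PER2 lies on the minus strand (chr2:238288611-238288860), CRY2 on the plus strand (chr11:45847225-45847474), TEF on the plus strand (chr22:41367205-41367454 and chr22:41381692-41381941), and BHLHE40 on the plus strand (chr3:4979187-4979436).
PER2: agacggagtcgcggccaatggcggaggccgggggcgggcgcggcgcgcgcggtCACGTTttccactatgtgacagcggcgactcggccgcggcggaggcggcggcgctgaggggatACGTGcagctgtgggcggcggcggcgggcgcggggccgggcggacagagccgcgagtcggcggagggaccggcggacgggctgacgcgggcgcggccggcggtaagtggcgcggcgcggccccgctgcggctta
CRY2: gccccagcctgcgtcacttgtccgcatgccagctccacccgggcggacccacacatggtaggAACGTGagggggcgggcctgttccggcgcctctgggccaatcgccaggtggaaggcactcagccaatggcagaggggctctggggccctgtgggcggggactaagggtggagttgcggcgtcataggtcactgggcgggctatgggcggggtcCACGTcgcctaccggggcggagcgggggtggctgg
TEF, upstream start: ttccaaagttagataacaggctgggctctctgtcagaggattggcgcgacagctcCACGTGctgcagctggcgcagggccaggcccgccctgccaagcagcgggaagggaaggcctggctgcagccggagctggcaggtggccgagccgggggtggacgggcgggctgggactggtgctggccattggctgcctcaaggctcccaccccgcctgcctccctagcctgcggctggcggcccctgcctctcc
TEF, downstream start: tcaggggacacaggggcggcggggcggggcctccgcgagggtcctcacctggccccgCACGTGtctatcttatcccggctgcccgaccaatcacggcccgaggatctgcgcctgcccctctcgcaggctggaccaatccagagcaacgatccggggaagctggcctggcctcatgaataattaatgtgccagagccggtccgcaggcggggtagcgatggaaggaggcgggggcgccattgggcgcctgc
BHLHE40: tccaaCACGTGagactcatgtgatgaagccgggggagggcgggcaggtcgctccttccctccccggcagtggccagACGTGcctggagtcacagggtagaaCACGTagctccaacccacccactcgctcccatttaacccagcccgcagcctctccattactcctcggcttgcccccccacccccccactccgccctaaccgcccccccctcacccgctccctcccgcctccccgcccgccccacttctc

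The 10 genes had 14 such windows in the RefSeq promoters, all 10 being matched. An E-box was found in 5 of the 14 windows, upstream of PER1, NR1D2, TEF (both windows) and BHLHE40, and in 6.34% of 35116 windows over all genes. Both TEF windows held one, starting 195 and 193 bases before the respective start, and that of BHLHE40 started 245 bases before. The E′-box was found in 4 windows, upstream of PER2 (197 bases before the start), CRY1, CRY2 and NR1D1, and in 4.55% of all windows. PER3 and NR1D2 had a D-box in 1 window each (1.98% of all windows), and NR1D2 had the ROR element in 1 (0.265%). The IFNγ-activated site was found upstream of DBP (6.57% of all windows), which did not pass the test, and no window of the 10 genes held the cAMP response element (1.65%). ACGTG was found in 9 of the 14 windows (18.5% of all windows). BHLHE40 and TEF share the E-box and moved in opposite directions. These are matches of letters in a short window, and no binding was measured.

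BHLHE40, the E-box repressor, had the largest change of the 10. It was also the clock gene with the most counts, 2403 and 1742 in the unstimulated libraries and 682 and 511 with IFNγ. In CPM it stood at 234 and 244 unstimulated and at 66.3 and 69.7 with IFNγ. The IFNγ libraries were thus both far below, and the libraries within each condition lay close together. The fall was 3.51-fold (log2 fold change -1.81, SE 0.113, edgeR adjusted p = 0.00035), and 1.61% of tested genes had a larger absolute change. Leaving out any 1 library gave log2 fold changes from -1.87 to -1.77. BHLHE40 (ENSG00000134107) occupies bases 5021122 to 5027008 of chromosome 3 in GRCh37 (plus strand), and 12.8% of its exon length is shared with the antisense gene BHLHE40-AS1. That gene had 3 to 12 counts per library.

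PER1, PER2 and PER3 encode the period proteins, the partners of the cryptochromes in the repressor complex, and their values went in different directions. PER2 had 11.7 and 10.2 CPM unstimulated and 26.1 and 22.9 CPM with IFNγ, from 120, 73, 268 and 168 counts. Both IFNγ libraries were above both unstimulated ones, a rise of 2.23-fold (log2 fold change 1.16, SE 0.173, edgeR adjusted p = 0.0051). PER2 (ENSG00000132326) spans bases 239152685 to 239198743 of chromosome 2 in GRCh37 (minus strand), and 2.65% of its exon length is shared with a noncoding gene on the opposite strand. PER1, often the period gene that responds first to a stimulus, had 32.7 and 28.3 CPM unstimulated and 23.1 and 20.7 CPM with IFNγ. These values did not overlap, but the log2 fold change of -0.48 (SE 0.156) did not pass the test (edgeR adjusted p = 0.0702, 95% interval -0.84 to -0.11). PER3 had 73.4 and 60.5 CPM unstimulated and 54.3 and 43.8 CPM with IFNγ. Its log2 fold change was -0.45 (SE 0.161, edgeR adjusted p = 0.0908). Leaving out any 1 library gave values from -0.627 (without IFNγ replicate 1) to -0.302 (without unstimulated replicate 1). The exons of PER3 overlap those of UTS2 on the opposite strand over 10.7% of their length, and UTS2 had 4 to 8 counts per library.

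CRY1 and CRY2 encode the cryptochromes, the repressors that bind CLOCK and BMAL1 directly. CRY2 had 33.7 and 31.1 CPM unstimulated and 45.6 and 44.2 CPM with IFNγ, so each IFNγ library was above both others. Its rise of 1.39-fold was the smallest that passed (log2 fold change 0.47, SE 0.134, edgeR adjusted p = 0.0474). It no longer passed under 8 of 13 alternatives, among them DESeq2 (adjusted p = 0.109), GC and length correction (log2 fold change 0.28, edgeR adjusted p = 0.204) and the omission of any 1 library (adjusted p from 0.0939 to 0.154). CRY2 (ENSG00000121671) spans bases 45868669 to 45904799 of chromosome 11 in GRCh37 (plus strand) and shares no exon sequence with another annotated gene. CRY1 had 15.9 and 16.8 CPM unstimulated and 20.6 and 31.1 CPM with IFNγ. The IFNγ libraries were both higher but differed from each other by more than either unstimulated library did from the other. The log2 fold change was 0.65 (SE 0.219, edgeR adjusted p = 0.0756). It was 0.32 without IFNγ replicate 2 and 0.92 without IFNγ replicate 1 (edgeR adjusted p = 0.43 and 0.008), and 1.13 with the GC and length trend removed (edgeR adjusted p = 0.0115), at which it also passed the fold change threshold.

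NR1D1 and NR1D2, the REV-ERB repressors, both had lower values with IFNγ, and neither passed the test. NR1D1 had 18.1 and 18.5 CPM unstimulated and 13.6 and 13.1 CPM with IFNγ. The groups were apart and the libraries within each close, with a log2 fold change of -0.45 (SE 0.162, edgeR adjusted p = 0.0908). NR1D2 had 46.6 and 46.8 CPM unstimulated and 34.5 and 37.2 CPM with IFNγ, a log2 fold change of -0.38 (SE 0.131, edgeR adjusted p = 0.081). With the GC and length trend removed the sign of NR1D2 turned, to 0.07, and that of NR1D1 did not (-0.68, edgeR adjusted p = 0.0262). Exon sequence of NR1D1 is shared with THRA, which encodes the thyroid hormone receptor α on the opposite strand, over 18% of its length. Whether the counting of these libraries used strand is not given in the sources used here, so the values of NR1D1 are uncertain to that extent. THRA had a log2 fold change of -0.18 (edgeR adjusted p = 0.356).

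DBP and TEF, the PAR bZIP activators of D-box genes, differed from each other. TEF had 58.1 and 53.9 CPM unstimulated and 96.0 and 105 CPM with IFNγ, from 597, 385, 987 and 773 counts. Both IFNγ libraries were well above, a rise of 1.80-fold (log2 fold change 0.84, SE 0.123, edgeR adjusted p = 0.0048), and the value ran from 0.66 to 0.90 over all 13 alternatives. TEF (ENSG00000167074) spans bases 41763337 to 41795330 of chromosome 22 in GRCh37 (plus strand) and shares no exon sequence with another annotated gene. DBP, among the genes of highest amplitude in rhythmic tissues, had 14.7 and 13.5 CPM unstimulated and 11.8 and 14.1 CPM with IFNγ. These overlapped, with a log2 fold change of -0.13 (95% interval -0.57 to 0.30, edgeR adjusted p = 0.65). Of the exon length of DBP, 10.2% is shared with SPHK2 on the opposite strand. SPHK2, a sphingosine kinase gene, rose (log2 fold change 0.53, edgeR adjusted p = 0.0225).

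**Figure D2:**
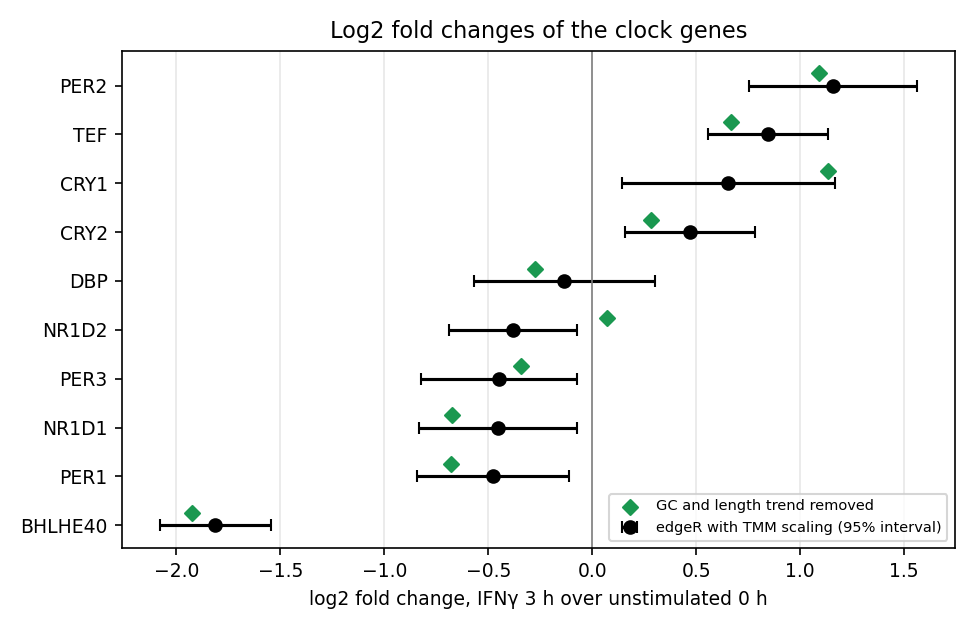
Log2 fold change of each clock gene, IFNγ at 3 h over unstimulated at 0 h, with 95% intervals from edgeR (black circles), and the value after removal of the GC and length trend (green diamonds). The intervals of 9 genes leave out 0 before adjustment for multiple testing, 4 pass after it, and the green value of NR1D2 is on the other side of 0.

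Before adjustment 9 of the 10 genes had p under 0.05, as had 5239 of the 14820 tested genes. Among the 7 PER, CRY and REV-ERB repressors, PER2 and CRY2 rose and the other 5 did not pass. Over all tested genes 9.02% rose and 11.0% fell. CRY2 did not pass in DESeq2 (adjusted p = 0.109) or with the GC and length trend removed (edgeR adjusted p = 0.204).

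Levels were compared between genes as RPKM, the CPM divided by the kilobases of annotated exon. In unstimulated cells BHLHE40 was highest at 68.0 ± 2.03 RPKM (SD, n = 2), followed by TEF at 11.9 ± 0.63 RPKM. PER3, NR1D2, NR1D1, CRY2, PER1, CRY1 and DBP came next, from 8.24 down to 2.17 RPKM, and PER2 was lowest at 1.55 ± 0.145 RPKM. Only PER3 and NR1D2 were neighbours whose libraries overlapped. With IFNγ at 3 h TEF was first at 21.4 ± 1.42 RPKM and BHLHE40 second at 19.4 ± 0.681 RPKM (SD, n = 2). CRY2 followed at 7.24 RPKM, while NR1D2, PER3, CRY1 and NR1D1 lay between 6.20 and 5.08 RPKM, each overlapping its neighbour. PER2 (3.46 RPKM) and PER1 (3.13 RPKM) overlapped as well, and DBP was last at 1.99 RPKM. These levels depend on the exon length annotated, which adds up the exons of all isoforms.

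**Figure D3:**
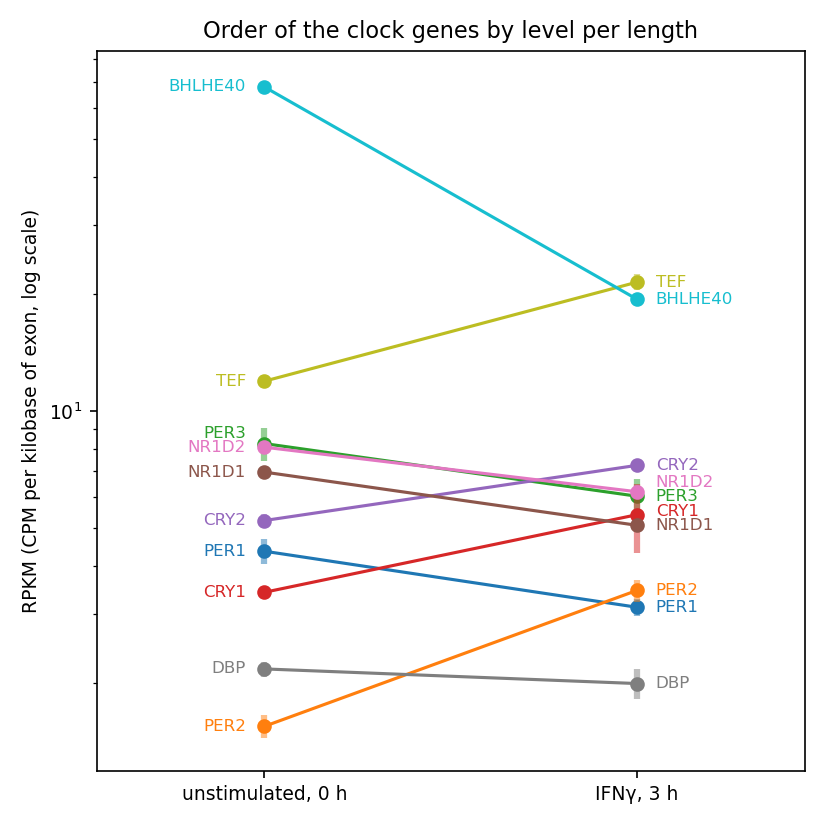
Mean RPKM of each clock gene on a log axis in unstimulated cells at 0 h (left) and in cells with IFNγ at 3 h (right), with vertical bars from the lowest to the highest of 2 libraries. BHLHE40 and TEF exchange the first and second place, and PER2 moves from the last place past DBP and to the level of PER1.

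The balance between related genes was read from the ratio of their RPKM within each library, which does not depend on library scaling. PER1 exceeded PER2 in unstimulated cells, with PER1/PER2 ratios of 2.83 and 2.80, and was slightly below it with IFNγ, with 0.895 and 0.916. The PER2/PER3 ratio went from 0.183 and 0.194 to 0.551 and 0.60. In contrast PER1/PER3 was 0.517 and 0.543 unstimulated and 0.493 and 0.550 with IFNγ, so its groups overlapped. The CRY1/CRY2 ratio overlapped too (0.611 and 0.701, then 0.586 and 0.912), and so did NR1D1/NR1D2 (0.855 and 0.871, then 0.869 and 0.775). DBP/TEF went from 0.183 and 0.181 to 0.0889 and 0.0966. NFIL3/DBP, the repressor of D-boxes over an activator, went from 15.4 and 18.7 to 4.46 and 3.95. The 4 ratios with separate groups had an exact permutation p of 0.333 (two-sided), the smallest that 2 against 2 libraries can give. With the GC and length trend removed, the log2 change of NR1D1/NR1D2 from the fitted fold changes was -0.75 in place of -0.07, that of CRY1/CRY2 0.85 in place of 0.18, and that of PER1/PER3 -0.34 in place of -0.03. Without IFNγ replicate 2 that of CRY1/CRY2 turned to -0.15, without IFNγ replicate 1 that of NR1D1/NR1D2 was -0.16, and that of PER1/PER3 was 0.056 without IFNγ replicate 1.

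**Figure D4:**
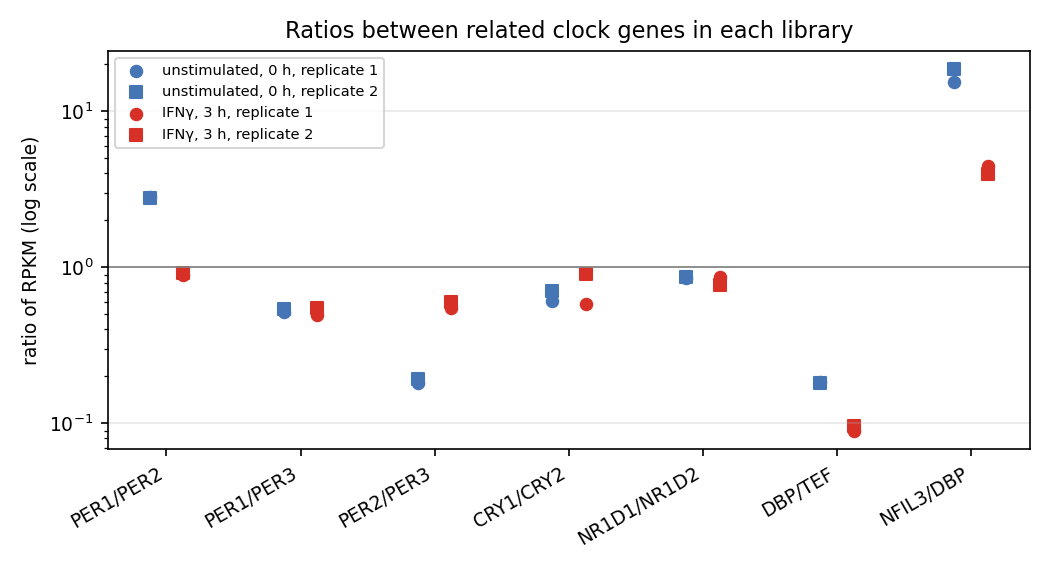
Ratio of RPKM between related clock genes in each library, on a log axis, for unstimulated cells at 0 h (blue) and cells with IFNγ at 3 h (red). PER1/PER2 goes from 2.83 and 2.80 to 0.895 and 0.916, just under the line at 1, while PER1/PER3, CRY1/CRY2 and NR1D1/NR1D2 overlap.

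Other genes of the clock were taken from 3 lists. Among the activators CLOCK, ARNTL (BMAL1), NPAS2 and ARNTL2 and the receptor RORA, all 5 of which were tested, 0 rose and 2 fell, beside 9.02% and 11.0% of all tested genes, with a median log2 fold change of -0.60. Beside the count of 0 from edgeR, 3 of the 5 had an unadjusted p under 0.05 in either direction, and DESeq2 gave 0 higher. After GC and length correction 1 was higher and 1 lower, and without unstimulated replicate 1 the number lower was also 1. RORA, the receptor that opposes REV-ERB at the BMAL1 promoter, had 452 and 279 counts unstimulated and 92 and 71 with IFNγ. Its log2 fold change was -2.16 (SE 0.162, edgeR adjusted p = 0.00063), and -1.43 with the GC and length trend removed (edgeR adjusted p = 0.0016). RORB had at most 2 counts in any library and was not tested. CLOCK, the partner of BMAL1, had 109 and 77.8 CPM unstimulated and 55.6 and 38.9 CPM with IFNγ. It fell by 0.98 on the log2 scale (SE 0.218, edgeR adjusted p = 0.0208), but with the GC and length trend removed its value was -0.35 (edgeR adjusted p = 0.203), and without unstimulated replicate 1 -0.71 (edgeR adjusted p = 0.0731). ARNTL itself, with 76 to 119 counts per library, had a log2 fold change of 0.25 and overlapped between conditions (edgeR adjusted p = 0.45).

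Of 11 kinases, ubiquitin ligase parts and other regulators of the clock, all were tested, and 1 rose, 1 fell and 9 did not pass, beside 9.02% and 11.0% of all tested genes, with a median log2 fold change of -0.23. The number lower was 3 with library size as the only scaling, and 2 with at least 10 counts required in every library, with the GC and length trend removed, or without IFNγ replicate 2. The median was -0.041 with the trend removed and -0.36 without IFNγ replicate 2. CIART, which encodes a further repressor of CLOCK and BMAL1, had 133 and 107 counts unstimulated and 61 and 48 with IFNγ, a log2 fold change of -1.16 (SE 0.208, edgeR adjusted p = 0.0095). CSNK1D, the kinase that marks PER proteins for breakdown, rose by 0.56 on the log2 scale (edgeR adjusted p = 0.0324). It did not pass with library size as the only scaling (edgeR adjusted p = 0.0525), with the GC and length trend removed (0.0501), without IFNγ replicate 1 (log2 fold change 0.50, adjusted p = 0.0732) or without unstimulated replicate 2 (0.41, adjusted p = 0.107).

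Of 11 other output genes linked to the clock, 9 were tested, 3 rose and 2 fell, beside 9.02% and 11.0% of all tested genes, with a median log2 fold change of -0.12. Without unstimulated replicate 1 there was 1 in each direction, and the number lower was also 1 without unstimulated replicate 2 and with the GC and length trend removed. NFIL3, the repressor that binds the same D-boxes as DBP and TEF, had 738 and 570 counts unstimulated and 171 and 129 with IFNγ. The log2 fold change was -2.15 (SE 0.141, edgeR adjusted p = 0.00043), while TEF rose and DBP did not pass. WEE1, a cell cycle kinase, fell by 0.53 (edgeR adjusted p = 0.0312), but its value was -0.06 with the GC and length trend removed (edgeR adjusted p = 0.852). WEE1 also did not pass without IFNγ replicate 1 (-0.44), unstimulated replicate 1 (-0.52) or unstimulated replicate 2 (-0.53). NOCT, the nocturnin gene, rose from 26 and 17 counts to 63 and 62, a log2 fold change of 1.55 (edgeR adjusted p = 0.0139). USP2, a deubiquitinase, rose by 0.97 and KLF10, a Krüppel-like factor, by 0.76 (edgeR adjusted p = 0.0155 and 0.0119), and neither passed without unstimulated replicate 1 (0.93 and 0.60, edgeR adjusted p = 0.0627 and 0.0536). HLF, the remaining PAR bZIP gene, had 1 to 5 counts, and BHLHE41, the paralog of BHLHE40, had 3 to 12 counts, so both were too low to be tested and a change was not detectable at this depth.

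**Figure D5:**
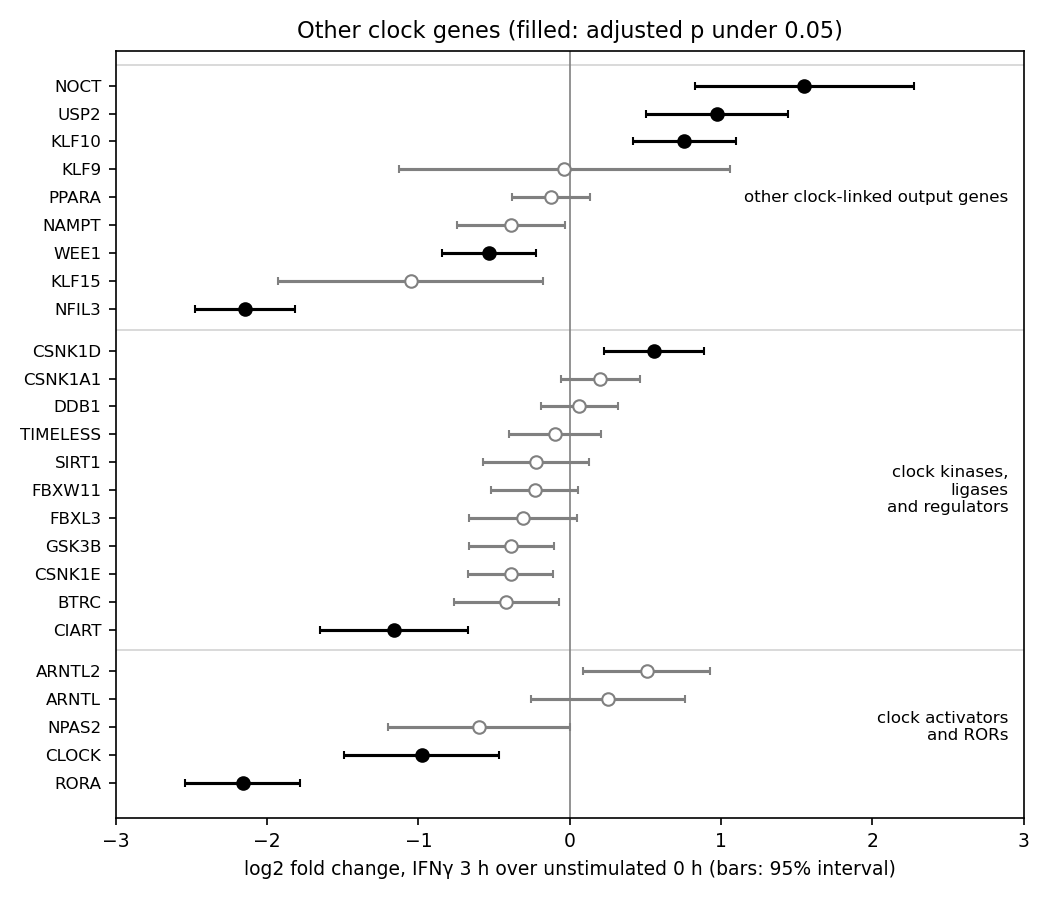
Log2 fold changes with 95% intervals for the tested genes of the 3 other clock lists, IFNγ at 3 h over unstimulated at 0 h. Filled points passed an adjusted p of 0.05 in edgeR. RORA (-2.16), NFIL3 (-2.15), CIART (-1.16), CLOCK (-0.98) and WEE1 (-0.53) lie below 0, and NOCT (1.55), USP2 (0.97), KLF10 (0.76) and CSNK1D (0.56) above.

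Genes that respond early to serum or CREB and genes linked to low oxygen are set beside the clock genes, since both stimuli are known to act on members of the clock. Of 11 serum and CREB immediate-early genes, 8 rose and 0 fell, beside 9.02% and 11.0% of all tested genes, with a median log2 fold change of 0.87 and a summed level of 170 to 175 CPM unstimulated and 384 to 459 CPM with IFNγ. FOSB, FOSL1, EGR1 and ATF3 had the largest log2 fold changes, of 4.26, 3.04, 2.68 and 1.73. The first of these values rest on few unstimulated counts, 4 and 5 for FOSB and 16 and 10 for FOSL1. FOS, with 352 and 217 counts unstimulated and 218 and 176 with IFNγ, had a log2 fold change of -0.52 (edgeR adjusted p = 0.0523). Beside the 0 that fell in edgeR, and 0 in DESeq2, 10 of the 11 genes had an unadjusted p under 0.05 in either direction. In edgeR 1 was lower with library size as the only scaling, with at least 10 counts required in every library, with the GC and length trend removed, or without IFNγ replicate 2. Of 12 hypoxia-linked genes, 6 fell and 0 rose in edgeR (7 and 0 in DESeq2, and 9 with an unadjusted p under 0.05 in either direction), beside 11.0% and 9.02% of all tested genes, with a median of -0.45 and a summed level of 4878 to 5474 CPM unstimulated and 3600 to 4194 CPM with IFNγ. The number higher was 2 without a filter on low counts, and 1 with upper quartile scaling, without IFNγ replicate 1, or without unstimulated replicate 2. Among them KDM3A, a histone demethylase gene, had a log2 fold change of -2.42, ANKRD37 -3.60 (-3.0 without IFNγ replicate 1 and -4.38 without IFNγ replicate 2, from 7 and 13 counts in these), PDK1 -1.07 and PFKFB3 -1.07, and PDK1 had -0.43 with the GC and length trend removed (edgeR adjusted p = 0.11). Of the 12 genes 8 had a negative and 4 a positive log2 fold change. CA9 (0.64) and SLC2A1 (0.42) were higher in both IFNγ libraries and did not pass (edgeR adjusted p = 0.0526 and 0.095). BHLHE40, itself a known target of hypoxia-inducible factor, fell in the same libraries. The part of either group of genes in the values of the clock genes was not tested.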

How the data were processed

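RNA-seq was analysed for 4 Caco-2 libraries, 2 unstimulated at 0 h and 2 with IFNγ at 3 h, grouped by the sample labels. The values deposited by the authors are raw counts for each Ensembl gene and library, neither normalized nor pooled. The submitters' processing notes name HISAT 0.5.1 and HTSeq 0.6.1p1. The genome build, annotation and strand setting are not given in the sources used here, so overlapping genes are uncertain. Nothing says that the libraries come from separate cultures, so p-values measure the spread between libraries, which may be technical.

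Of the identifiers, 96.5% had a symbol in GENCODE 44 on GRCh37, which also gave exon lengths, GC content and positions. ARNTL and ARNTL2 were matched through RefSeq synonyms to BMAL1 and BMAL2. Counts were filtered by filterByExpr, scaled by TMM and tested by glmQLFit and glmQLFTest (edgeR 4.0.16, R 4.3.3) with condition as the single term. The SE is the ratio of the fitted log2 fold change to the square root of F. In 3 simulations with 200 changed genes, this test recovered 61.3% of genes changed 2-fold and 88% of those changed 4-fold. Of its calls there 11.3% were false, above the nominal level of 0.05. With 2 libraries in each condition, adjusted p-values near the threshold are to be read with caution. In 3 simulations a GC trend was added (0.3 on the log2 scale per SD of GC content). This strength was set, not estimated from these libraries. Of the calls of this test 84.2% were then false, and 10.5% after the trend was removed. Genes shifted by the added trend alone counted as false, and the removal used the same GC content that had set it. Both shares therefore follow from this setting. All simulations changed 200 genes with 14200 to 14540 tested, whereas 20.0% of all tested genes passed in these data. The share of false calls depends on how many genes change, so none of these shares is an estimate for these data. These data hold a GC trend, whose source was not tested. Calls without that removal are to be read beside the values with it. Depth was 7171455 to 10365346 counts.

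The alternatives were other scalings, DESeq2 1.42.0, other filters on low counts, removal of a GC and length trend (loess, span 0.3, longest transcript), a replicate block, other thresholds, and each library left out, in which case the lone library of a condition is assumed to vary like the other condition. The members and lists were chosen with earlier results of these data known. All 10 members are named, from the other clock lists the genes past the test and those not tested, and from the remaining lists at most the 4 passing genes with the largest change. Named outside this rule, after their values were seen, were ARNTL, FOS, CA9, SLC2A1, SOCS1, ALPI, THRA, SPHK2, UTS2, BHLHE40-AS1, and the markers with few counts or most counts. RefSeq promoters of GRCh38.p14 were searched for motifs in the 250 bases upstream of each start. Some listed genes are not reported here.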

Additional observations from a re-analysis of the deposited data

How the results depend on the processing

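PER2, TEF and BHLHE40 kept their direction and passed the test under all 13 alternatives, and the log2 fold change of PER2 ran from 1.05 to 1.26. DBP passed under none of them. NR1D2 turned to 0.072 with the GC and length trend removed and to 0.065 with the replicate block as well, and the median of the other clock-linked output genes turned to 0.057 and 0.054. Of the remaining values for single clock genes under an alternative, 105 kept their side of the threshold, 15 passed newly and 8 (all CRY2) no longer passed.

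Of the clock genes 3 were higher and 1 lower. The number lower was 5 with the replicate block, 3 with the GC and length trend removed, 4 with both, 5 at an adjusted p of 0.1, and 1 to 2 with each library left out. The 2 without IFNγ replicate 1 were PER3 and BHLHE40. The number higher and past the fold change threshold was 2 in place of 1 with the GC and length trend removed, with and without the replicate block. Over all tested genes 1337 were higher and 1626 lower, and their number at an adjusted p of 0.1 is not given here. The replicate block gave 2596 and 2892, the trend removal with the block 2897 and 2440, and without it 962 lower. Leaving out 1 library gave 711 to 1146 higher and 1057 to 1878 lower, with the fewest in each case without unstimulated replicate 1. Of genes with a log2 fold change below -1, 652 were called, 313 with the trend removed, and 554 to 1112 with each library left out, most without IFNγ replicate 1. The cause was not tested.

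Same-numbered libraries deviated together across genes (r = 0.415), but with 2 pairs the numbers are not taken to pair the libraries. With the replicate block 9 clock genes passed, all but DBP, beside 2596 higher and 2892 lower of all 14820 tested genes. The block also gave 1 activator or ROR gene higher, 5 clock regulators lower, 5 glucocorticoid-responsive genes higher, 1 serum or CREB gene lower, 2 hypoxia-linked genes higher and 1 marker of other cell types higher. In the simulations 14.3% of the calls with the block were false. Without a filter on low counts, and without IFNγ replicate 2, the prior degrees of freedom that edgeR estimated were infinite, and those p-values do not use a gene's own spread. Depth limited RORB, HLF and BHLHE41, which were too low to test.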

Other observations

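Glucocorticoid-responsive genes, which include known direct targets of the receptor that also acts on PER1, were listed as well. Of 9 such genes 8 were tested, and 3 rose and 0 fell (2 and 0 in DESeq2), beside 9.02% and 11.0% of all tested genes, with a median log2 fold change of 0.59 beside -0.01 over all tested genes. In edgeR 5 of the 8 had an unadjusted p under 0.05, and 5 were higher after GC and length correction or without IFNγ replicate 1. Of the 8 tested genes 6 had a positive and 2 a negative log2 fold change. SGK1, a kinase gene, had 268 and 195 counts unstimulated and 701 and 476 with IFNγ, a log2 fold change of 1.32 (edgeR adjusted p = 0.0015). DUSP1, a MAP kinase phosphatase gene, had 0.94 (edgeR adjusted p = 0.0061), and MT2A, a metallothionein gene, rose from 2 and 5 counts to 59 and 38. FKBP5, a widely used marker of the receptor's activity, had a log2 fold change of 0.50 and did not pass (edgeR adjusted p = 0.169). PER1 had lower values in the same IFNγ libraries and did not pass (log2 fold change -0.48, edgeR adjusted p = 0.0702). The part of the glucocorticoid-responsive genes in the values of the clock genes was not tested. TSC22D3 had at most 3 counts in any library and was not tested. FKBP5, TSC22D3 and PER1 were singled out after their values were seen.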
